A study of Homo sapiens with 6 samples.

Results

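EGR1, EGR3, EGR4, IER2, IER3, IER5, KLF4, KLF6, KLF10 and ZFP36 are immediate early genes, that is, genes a cell can transcribe within minutes of a growth factor, serum or stress signal without making new protein first. Their loci were described here from the sites of histone H3 lysine 27 acetylation (H3K27ac) in the cell line SU-CCS-1, which was established from a human clear cell sarcoma (CCS) and bears the fusion gene EWSR1::ATF1 (EA1). The 10 genes were taken by name out of 20033 protein-coding genes of GENCODE version 44. A locus was the gene body and 50 kb on each side, and a peak belonged to it when any of its bases lay there. This gave 57 of the 30784 H3K27ac peaks in the list (0.185%), on 8 chromosomes.

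The series holds 3 H3K27ac chromatin immunoprecipitation sequencing (ChIP-seq) samples and 3 input samples, input being sonicated chromatin sequenced without immunoprecipitation, all from SU-CCS-1 cells of genotype EWSR1::ATF1, for which the study describes culture in medium with fetal bovine serum. The study maps where EA1 and marks of active chromatin lie in CCS. The H3K27ac samples are represented by 1 merged list, which gives the position of each peak and neither its height, its depth nor any value per replicate. Every value below is therefore 1 reading without a replicate error, no difference was tested, and a gene without a peak had no peak called, which is not evidence that its histones lacked the mark. RNA was not measured in these samples, so none of the values is an expression level.

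As background, H3K27ac is placed by the acetyltransferases CBP and p300 and marks active promoters and enhancers. Immediate early genes are short, and their promoters are kept accessible for transcription factors that signalling kinases switch on, above all serum response factor (SRF) with its ternary complex partners and the CREB/ATF family. SRF binds the CArG box and CREB/ATF proteins bind TGACGTCA or its shorter core TGACG. EA1 keeps the DNA-binding domain of ATF1, a member of the CREB/ATF family. The EGR and KLF proteins are zinc finger transcription factors that bind GC-rich DNA, IER2, IER3 and IER5 are small regulators of growth and survival, and ZFP36 (tristetraprolin) binds AU-rich elements and hastens the decay of mRNAs, those of other immediate early genes included.

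The promoters of EGR1, EGR4, KLF4 and KLF6 are printed because they carry the contrasts found among the 7 genes with a promoter sequence. EGR3, IER3 and KLF10 had none to search. EGR1 held both kinds of signal response site inside a peak, EGR4 held the TGACG core outside any peak, KLF4 held the core and KLF6 a TGANNTCA site inside wide peaks. Each line holds the 250 bases before the start site, 5′ to 3′ on the strand of the gene, from the RefSeq promoter table (GRCh38.p14). Capitals mark CArG boxes (10 letters), the core TGACG, which reads CGTCA where it lies on the other strand, and TGANNTCA. The windows were chr5:138465229-138465478 (plus strand) for EGR1, chr2:73293549-73293798 (minus) for EGR4, chr9:107489770-107490019 (minus) for KLF4 and chr10:3785210-3785459 (minus) for KLF6.
EGR1: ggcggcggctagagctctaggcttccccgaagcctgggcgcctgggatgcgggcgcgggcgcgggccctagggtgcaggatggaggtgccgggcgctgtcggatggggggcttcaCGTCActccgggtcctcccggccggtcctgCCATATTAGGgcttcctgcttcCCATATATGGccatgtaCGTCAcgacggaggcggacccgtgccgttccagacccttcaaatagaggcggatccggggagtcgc
EGR4: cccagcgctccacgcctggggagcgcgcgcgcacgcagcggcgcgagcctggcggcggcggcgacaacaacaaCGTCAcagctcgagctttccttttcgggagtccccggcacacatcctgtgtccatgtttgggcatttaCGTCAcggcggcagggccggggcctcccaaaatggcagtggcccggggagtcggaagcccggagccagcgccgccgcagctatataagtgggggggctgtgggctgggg
KLF4: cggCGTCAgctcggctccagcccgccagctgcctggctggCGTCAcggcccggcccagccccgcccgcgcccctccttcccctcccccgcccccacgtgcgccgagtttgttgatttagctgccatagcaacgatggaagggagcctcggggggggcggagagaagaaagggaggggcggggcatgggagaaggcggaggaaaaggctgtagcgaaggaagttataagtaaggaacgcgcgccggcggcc
KLF6: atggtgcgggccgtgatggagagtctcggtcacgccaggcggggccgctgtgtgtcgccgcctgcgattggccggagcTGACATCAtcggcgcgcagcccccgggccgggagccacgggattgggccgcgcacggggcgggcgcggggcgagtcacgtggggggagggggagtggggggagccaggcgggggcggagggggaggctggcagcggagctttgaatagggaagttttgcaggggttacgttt

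Of the 10 genes, 9 had a promoter peak, defined as a peak with any base within 3 kb of any annotated start site. EGR4 was the exception. The same held for 12701 of the 20033 protein-coding genes (63.4%). EGR1, IER5 and KLF6 had 1 promoter peak each, and EGR3, IER2, IER3, KLF4, KLF10 and ZFP36 had 2 each. The main start site (that of the MANE Select transcript) lay inside a peak in 7 of the 10 genes, namely EGR1, IER2, IER3, IER5, KLF4, KLF6 and ZFP36, against 53.5% of all protein-coding genes. Among genes with a promoter peak, it did so in 77.8% of the 9 and in 84.4% of the 12701, so coverage was not higher there.

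The promoter peaks were wide at most of these genes. Summed over the promoter peaks of a gene, the width was 9400 bases at ZFP36, 6520 at KLF6, 5880 at IER2, 4780 at KLF4, 3700 at KLF10, 2860 at EGR3, 2720 at IER3, 2620 at IER5 and 2210 at EGR1. The list carries no error for a width, so neighbours in this order, above all EGR3, IER3 and IER5, cannot be set apart. The median was 3280 bases over the 10 genes, with EGR4 at 0, and 1090 bases over all protein-coding genes. Among genes that had a promoter peak, the median was 3700 bases for the 9 and 1760 bases for all 12701. Of the 9, 6 lay above the upper quartile of 2830 bases, EGR3 only narrowly at 2860. ZFP36 was wider than 97.6% of those 12701 genes, KLF6 than 94.6%, and EGR1, the narrowest of the 9, than 63.6%. Width in a broad call reflects how far the mark extends, how high the signal is and how stretches are joined, and these parts cannot be told apart from the list.

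**Figure D1:**
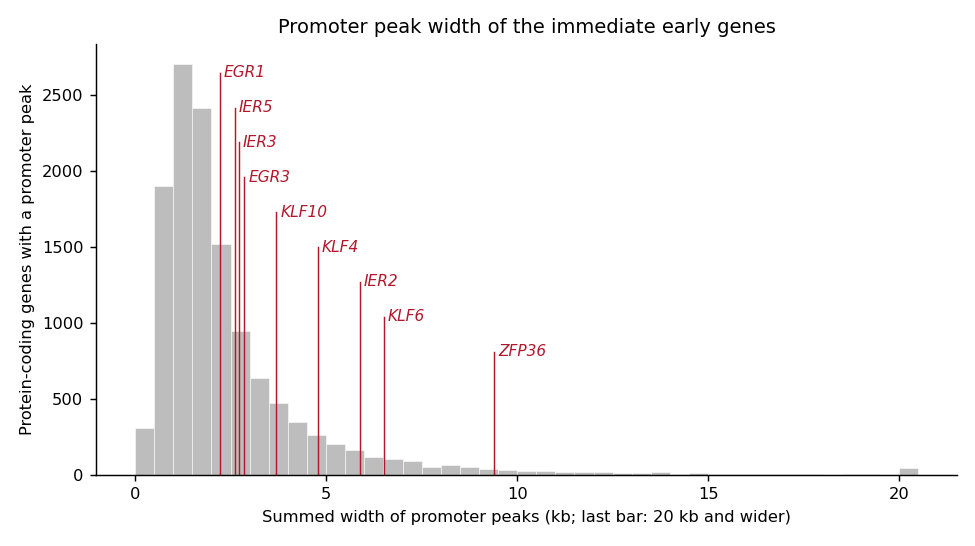
Summed width of promoter peaks (kb, horizontal) against the number of protein-coding genes with a promoter peak (vertical, grey bars of 0.5 kb), with a red line at each of the 9 immediate early genes that had one (line heights only separate the names). EGR1 at 2.21 kb stands nearest the bulk of genes, and ZFP36 at 9.4 kb stands farthest out in the tail.

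More acetylated bases lay downstream than upstream of the start site at most of these genes. Bases in peaks were compared in the 3 kb on each side of the main start site. The downstream side held more in 7 of the 9 genes with a promoter peak, against 59.8% of all such genes. That side runs past the end of short genes such as IER3 (1350 bases) and ZFP36 (2566 bases). The second promoter peak of IER3 also overlapped FLOT1. EGR1 and EGR3 had the opposite order, and EGR4 had none on either side. Where the start site was covered, the covering peak ended a median of 847 bases downstream over all genes, and it ended 4828 bases downstream at KLF6, 4523 at ZFP36, 3199 at IER2, 3178 at KLF4 and 2130 at IER5. Each of these 5 was longer than in over 93% of covered genes, the lowest being IER5 at 93.1%. IER3, the shortest gene of the 10, reached 676 bases (longer than in 31.7%), and EGR1 reached 241 bases (longer than in 2.38%).

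Since these genes are short, a peak of a given width fills more of them. The share of the gene body in peaks was 100% at ZFP36, 89.3% at IER2, 78.7% at KLF4, 57% at IER3, 52.8% at KLF6, 50.7% at IER5, 32.3% at KLF10, 9.62% at EGR3, 6.33% at EGR1 and 0 at EGR4. The median was 51.8% for the 10 genes, 1.45% for all protein-coding genes and 22.9% for the 2149 genes that had a promoter peak and were no longer than KLF6, the longest of the 10 at 9286 bases. Against those 2149 genes, ZFP36 lay above 93.2% and IER2 above 90.9%, whereas EGR3 lay above 17.8% and EGR1 above 10.1%.

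**Figure D2:**
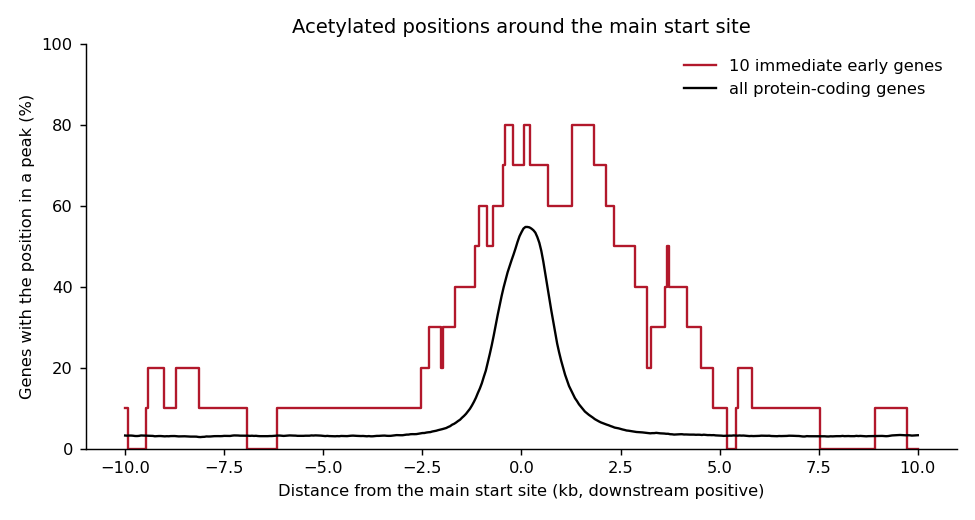
Percent of genes with a position inside an H3K27ac peak (vertical) by distance from the main start site (kb, horizontal, downstream positive) for the 10 immediate early genes (red steps of 10 percentage points) and all protein-coding genes (black). At the start site the values were 70% and 53.5%, and at 1 kb downstream they were 60% and 21.8%. At 1.5 kb downstream, where the red line stood at its highest value, they were 80% and 10.4%. The black line includes genes without any peak.

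The EGR genes, whose proteins bind GC-rich sites such as GCGNGGGCG through C2H2 zinc fingers, differed among themselves in how their start sites lay to the peaks. EGR1, the best known serum-induced member, lies on the plus strand of chromosome 5 (138465479 to 138469303). Its only peak ran from 1968 bases upstream to 241 bases downstream of the start site and ended inside exon 1, with 41% of that 590-base exon covered and none of the intron or of exon 2. Upstream of the start it was longer than in 95.4% of covered genes. No other peak lay within 50 kb, and the nearest stood 72 kb away, farther than for 84.9% of genes with a promoter peak. The locus share in peaks was 2.13%, below the 3.66% of the 1 Mb on each side.

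EGR3, which is induced together with EGR1 in many cells, lies on the minus strand of chromosome 8 (22687659 to 22693480). All 5 annotated start sites fell in a gap of 1480 bases between a peak of 2300 bases upstream and a peak of 560 bases that lay wholly in intron 1, so exon 1 and exon 2 were free of peaks. Its locus held 9 peaks and had the highest share in peaks of the 10 loci, at 27.4%, which was above 99.3% of all protein-coding genes. The other 7 of those peaks began 23.9 kb or more downstream of the start and all lay over BIN3, a gene for a BAR domain protein, among them a peak of 14000 bases. The high share at EGR3 was thus mostly acetylation over its neighbour.

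EGR4 lies on the minus strand of chromosome 2 (73290929 to 73293701) and had no peak within 3 kb of either start site or in its body. The single peak of its locus measured 800 bases, stood 8.93 kb downstream of the start and was a promoter peak of FBXO41, an F-box gene. The share of the locus in peaks was 0.778%, beside 1.28% in the surrounding 1 Mb flanks. EGR2, the family member outside the 10, had 1 promoter peak of 530 bases that covered its main start site. Along the EGR family, then, the start site was covered in EGR1 and EGR2, lay between peaks in EGR3 and was free of peaks in EGR4.

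The KLF genes encode zinc finger factors that bind GC-rich or CACCC elements. KLF4, one of the classical reprogramming factors, lies on the minus strand of chromosome 9 (107484852 to 107490482). A peak of 4240 bases covered its start site, exons 1 to 4 and the introns between them, and a second peak of 540 bases, 470 bases farther on, overlapped intron 4 and the last exon, exon 5. The second counted as a promoter peak through another start site inside the body, and the locus held no other peak. The nearest lay 57.2 kb away.

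KLF6, a widely expressed factor described as a tumour suppressor, lies on the minus strand of chromosome 10 (3775996 to 3785281). A single peak of 6520 bases, the widest promoter peak of the 10 genes, ran from 1691 bases upstream to 4828 bases downstream. It covered exon 1, intron 1 and exon 2 in full and 89.3% of intron 2, and left exons 3 and 4 free. The locus also held 4 distal peaks, 18.2 to 44.1 kb upstream of the start and 590 to 1520 bases wide, and 1 peak at a non-coding gene. Its share in peaks was 10.7%, against 1.14% in the flanks.

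KLF10, also known as TGF-beta inducible early gene, lies on the minus strand of chromosome 8 (102648784 to 102655725). Its main start site fell in a gap of 970 bases between a peak of 1460 bases upstream and a peak of 2240 bases that began 95 bases downstream and covered 40.6% of exon 1 and 68.7% of intron 1. The other annotated start site of KLF10 did lie in a peak. Peaks on both sides of an uncovered main start site, within 3 kb, were found at EGR3 and KLF10 and at 1.34% of all protein-coding genes, a count chosen after the positions were seen. The third peak at KLF10 stood 54 kb downstream of its start.

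**Figure D3:**
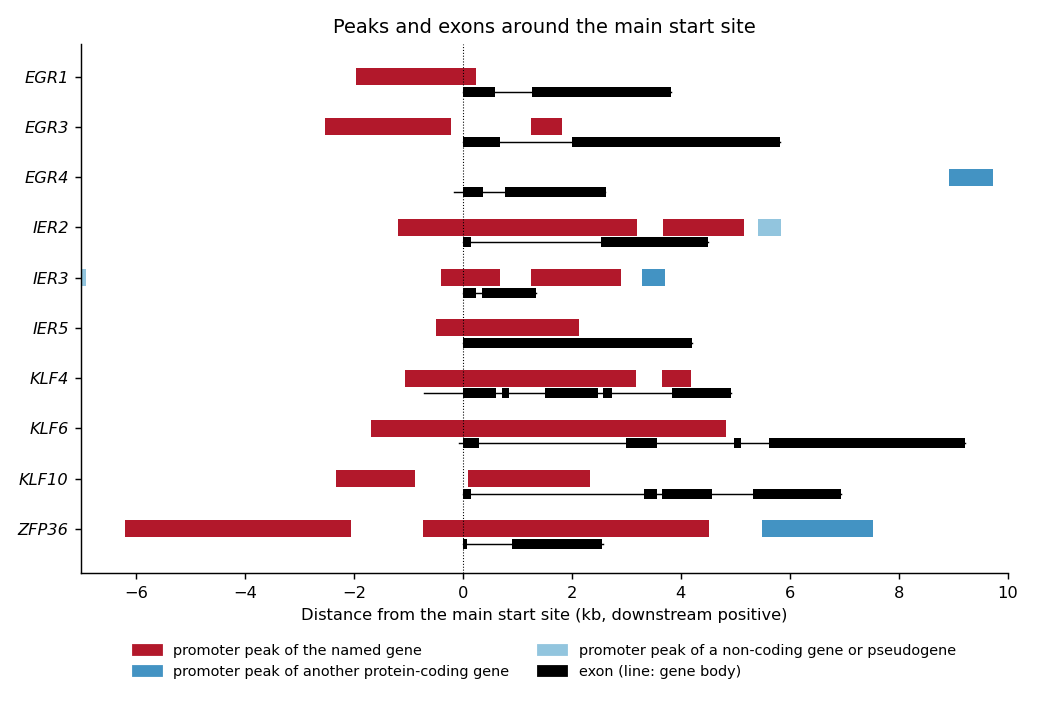
Peaks (coloured bars) above the exons of the main transcript (black blocks, with a line for the gene body) from 7 kb upstream to 10 kb downstream of the main start site (horizontal, kb) for each of the 10 genes. The start site at 0 was covered in 7 genes, lay between red bars in EGR3 and KLF10, and had none near it in EGR4.

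IER2, a nuclear protein induced by serum, lies on the plus strand of chromosome 19 (13150411 to 13154911). A peak of 4390 bases ran from 1190 bases upstream to 3199 bases downstream and covered exon 1 and intron 1 in full, and with a second peak of 1490 bases it covered 75.6% of exon 2. The first of these peaks also lay within 3 kb of a start site of STX10, a gene for a syntaxin. The locus held 9 peaks, of which 3 were distal at 11.8 to 31 kb downstream, 3 were promoter peaks of the neighbours NACC1 or TRMT1 and 1 stood at non-coding genes.

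IER3, a stress-induced survival factor, lies on the minus strand of chromosome 6 (30743199 to 30744548). A peak of 1080 bases covered exon 1, the intron and, with a second peak of 1640 bases, 41.9% of exon 2. A gap of 580 bases separated them, and both also lay within 3 kb of a start site of FLOT1, a gene for a membrane scaffold protein. The locus had 11 peaks, the most of the 10 loci, and none of them was distal. Beside its own 2 peaks, 4 were promoter peaks of FLOT1, TUBB or MDC1 and 5 of non-coding genes or pseudogenes.

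IER5, a regulator linked to the heat shock factor HSF1, is a single exon of 4201 bases on the plus strand of chromosome 1 (181088700 to 181092900). Its peak of 2620 bases covered the first 2131 bases of that exon. The other 4 peaks of the locus were all distal, 550 to 1700 bases wide, with 2 upstream at 14 and 15.9 kb and 2 downstream at 16 and 45.5 kb, and none lay in another protein-coding gene. No peak at IER5 was therefore at the start of another annotated protein-coding gene. The locus share was 6.98%, against 0.705% in the flanks.

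ZFP36 lies on the plus strand of chromosome 19 (39406847 to 39409412). A peak of 5250 bases, from 726 bases upstream to 4523 bases downstream, held the whole gene, and a peak of 4150 bases stood 2.05 kb upstream. The downstream end of the covering peak came within 3 kb of a start site of PLEKHG2, a guanine nucleotide exchange factor gene. Of the 10 peaks of the locus, 7 were promoter peaks of MED29, PAF1, PLEKHG2, RPS16 or SUPT5H, which include a ribosomal protein gene and subunits of transcription complexes. The share in peaks was 24.2%, above 98.9% of all protein-coding genes.

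Over the 10 loci, 15 of the 57 peaks were promoter peaks of the named gene, 18 of another protein-coding gene, 7 of a non-coding gene or pseudogene only, and 17 were distal, that is, beyond 3 kb of every annotated start site. No further peak lay in a gene body. The loci of IER2, IER3 and ZFP36 together held 30 of the 57. Peaks at the starts of other genes were 43.9% of the total, so these were assigned to the loci by distance alone. In addition, 4 of the 15 promoter peaks, at IER2, IER3 and ZFP36, were shared with a neighbouring protein-coding start.

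The 15 promoter peaks had a median width of 2240 bases, the 18 at other protein-coding starts 1975, the 7 at non-coding starts 890 and the 17 distal peaks 1220, beside 1060 for all 30784 peaks. The distal peaks belonged to 6 genes, EGR3, IER2, IER5, KLF6, KLF10 and ZFP36, with 7 upstream and 10 downstream at a median of 29.7 kb. The nearest, at 8.12 kb, lay in MED29 upstream of ZFP36. In all, 5 lay inside another protein-coding gene, BIN3 or MED29, and 12 in none. Whether any of them contacts the named gene was not measured.

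**Figure D4:**
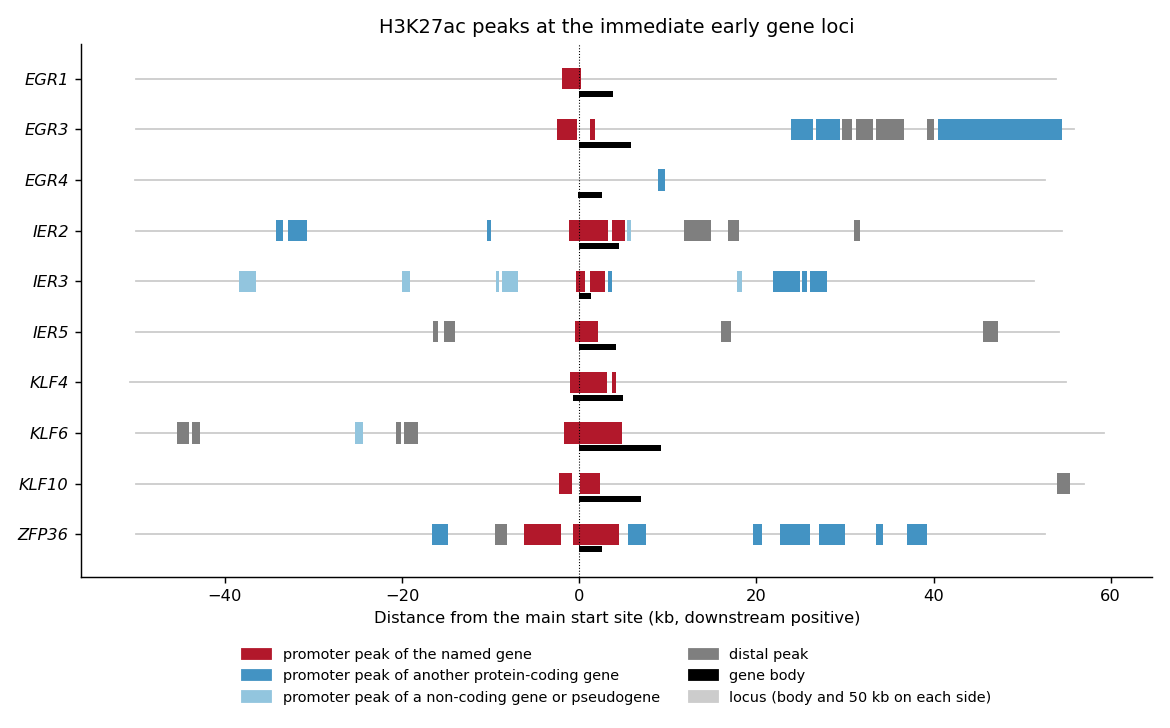
H3K27ac peaks at each locus (bars, coloured by whose start site they lie near, grey when distal) by distance from the main start site (kb, horizontal), with gene bodies in black and the locus as a thin line. EGR1 and KLF4 showed peaks only at their own start, with 1 and 2 peaks, while IER3 with 11 and ZFP36 with 10 peaks were flanked by peaks of other genes.

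The acetylated share of the locus had a median of 8.86% for the 10 genes and 2.14% for all protein-coding genes, and the median number of peaks was 5.5 and 3. Among genes with a promoter peak, the median share was 10.7% for the 9 and 7.04% for the 2149 no longer than KLF6. The median number of peaks was then 6 and 5. The share was above that of the 1 Mb flanks in 8 of the 10 genes, all but EGR1 and EGR4, against 52.1% of all protein-coding genes. In percentage points the excess was largest at EGR3, with 27.4% in the locus and 5.65% in the flanks, and ZFP36, with 24.2% and 3.86%. IER5, KLF4, KLF6 and KLF10 lay in sparser surroundings, with flanks of 0.705%, 1.12%, 1.14% and 0.849% and loci of 6.98%, 4.53%, 10.7% and 4.77%. At IER2 the flanks already had 7.05%, the highest of the 10, beside 14.1% for the locus. The comparison with flanks was chosen after values of these loci were known.

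**Figure D5:**
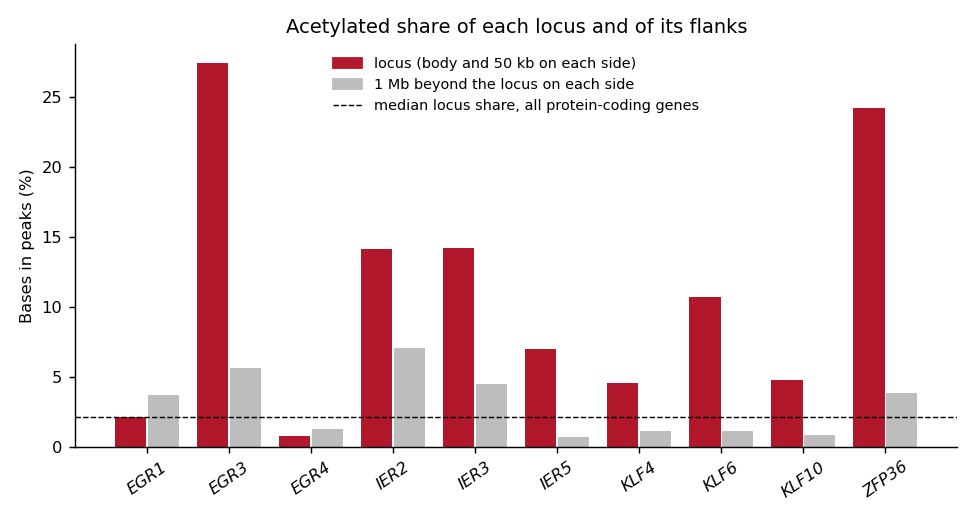
Percent of bases in H3K27ac peaks (vertical, from 0) in each locus (red bars) and in the 1 Mb beyond it on each side (grey bars), with the median locus share of all protein-coding genes as a dashed line. EGR3 and ZFP36 were highest at 27.4% and 24.2%, and only EGR1 and EGR4 had the grey bar above the red.

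Neighbouring peaks were stitched at the distance the study used to build super-enhancers (SEs). The study ranked such regions by signal. Here the 17049 regions could be ranked only by summed peak width, and 879 lay past the point where the scaled curve reaches a slope of 1, which is a ranking of width and not an SE call. IER2 and ZFP36 lay in such a region, 2 of the 10 genes beside 7.67% of all protein-coding genes. Among genes with a promoter peak, the share was 22.2% of the 9 and 22.5% of the 2149 no longer than KLF6. The call at IER2 was lost with stitching at 5 kb, which left ZFP36 alone, and stitching at 25 kb gave 5 genes, with EGR3, IER3 and KLF6 added. The region of ZFP36 ranked 77, with 10 peaks that summed to 24.9 kb and spanned 55.9 kb across MED29, PAF1, PLEKHG2, RPS16 and SUPT5H. That of IER2 ranked 488, with 6 peaks summing to 11.1 kb, and took in NACC1 and STX10.

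KLF6 and IER3 stood next, at ranks 1226 and 1298 with 6.52 and 6.31 kb. KLF6 held this rank with its single promoter peak. The remaining ranks were 1947 for KLF4, 2766 for KLF10, 3962 for EGR3, 4440 for IER5 and 5518 for EGR1. The narrowest region past the point summed to 7.99 kb and the widest before it to 7.97 kb. KLF6 and IER3 lay below both widths, but both were past the point with stitching at 25 kb, and IER3 also when regions were ranked by span. Without the peaks that lay entirely inside 2.5 kb around a start site, none of the 10 genes lay in a region past the point, against 2.53% of all protein-coding genes.

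The RefSeq promoter table, with windows from 250 bases before to 50 after the start, held 7 of the 10 genes, all but EGR3, IER3 and KLF10, and 15351 of all protein-coding genes. The full ATF/CREB site TGACGTCA was in none of the 7 windows and in 2.64% of all. The core TGACG, which is part of that site, was in 4 of the 7, EGR1, EGR4, IER2 and KLF4, and in 29.7% of all. Each of EGR1, EGR4 and KLF4 held the core at 2 places, both on the strand opposite to the gene, and IER2 held it once. At EGR1, IER2 and KLF4 these positions lay inside a peak, and at EGR4, where they began 177 and 109 bases upstream, they lay outside.

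The form TGANNTCA, which also takes in TGACGTCA, was in 2 of the 7 windows and in 10% of all. KLF6 held it as TGACATCA, 172 bases upstream, and ZFP36 as TGACTTCA just after the start. The CArG box was in EGR1 alone of the 7, as CCATATTAGG and CCATATATGG, which begin 105 and 83 bases upstream and stand in capitals in the printed sequence, and in 1.22% of all windows. In 500 bases on each side of the start, EGR1 held 5 CArG boxes, all within its peak, and the other 6 genes none. Of all such wider windows, 3.49% held at least 1. Beyond these windows, the gap of 1320 bases between the promoter peaks of ZFP36 held 1 CArG box. The EGR site GCGNGGGCG was in EGR1, KLF4 and KLF6 and in 12.8% of all windows. None of the 7 windows held the AP-1 site TGAGTCA, the ETS site CCGGAAGT or TATAAA, which were in 3.67%, 6.32% and 9.62% of all. In the wider windows KLF4 held TGAGTCA 495 bases upstream, inside its peak (9.45% of all held it), and GCGNGGGCG was in all of the 7 but ZFP36 (27% of all). Both strands were searched throughout for exact matches only, so sites with a differing letter were missed. A match is a string of letters and not a measured binding site.

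Set beside the AP-1 genes and the NR4A receptor genes, the 10 genes gave the following values. The AP-1 list took in BATF, BATF2 and BATF3 as well as the FOS and JUN genes. Of 10 AP-1 genes, 8 had a promoter peak (all but BATF and BATF3), 7 had the main start in a peak, and 3, FOSL1, JUNB and JUND, lay in a region past the slope point. All 3 NR4A receptor genes had a promoter peak and a covered start, and NR4A1 and NR4A2 lay past the point. Of all protein-coding genes, 63.4% had a promoter peak, 53.5% a covered main start and 7.67% a region past the point. Of those with a promoter peak, 11.8% had a region past the point. The median summed promoter width was 3065 bases for the AP-1 genes and 5970 for the NR4A genes, beside 3280 for the 10. These medians count genes without a promoter peak as 0. Among genes that had one, the medians were 3905, 5970 and 3700 bases, so the AP-1 genes were then above the genes described here. The loci of these lists held 50 and 15 peaks, and their median shares in peaks were 8.44% and 8.7%, beside 8.86%. The median share of the gene body in peaks was 12.7% and 12.9%, beside 51.8%, and the NR4A genes are several times longer than the genes described here. None of these differences was tested.

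The labelled cell type was checked against its markers. Of 8 melanocyte and neural crest markers, 7 had a promoter peak, beside 63.4% of all protein-coding genes. These were SOX10, MITF, PMEL, MLANA, S100B, DCT and EDNRB, with TYR the exception. The main start site lay in a peak in only 4 of the 8, beside 53.5%, and not in PMEL, MLANA, S100B or TYR. None of the 8 markers of muscle, blood, epithelium or endothelium had a promoter peak, namely MYOD1, MYOG, PTPRC, CD3E, EPCAM, CDH1, PECAM1 and CDH5. The thresholds left few close cases. The promoter peak farthest from a start site that still counted was the one of 540 bases at KLF4, at 2.33 kb, and the nearest that did not was one of 420 bases at IER3, at 3.3 kb. At the edge of the loci, the last peak inside was 47 kb from the gene body of KLF10. The first outside was 50.3 kb from that of EGR3.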

How the data were processed

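H3K27ac ChIP-seq was performed in SU-CCS-1 with 3 H3K27ac and 3 input samples, grouped by their titles. Per the labels and the study's methods, the authors used BWA-MEM 0.7.10-r789 for alignment to hg38, removed duplicate reads with samtools, made broad peak calls with MACS2 2.2.6 against input at a p-value cutoff and removed denylisted regions. They deposited 1 merged list with 4 columns for chromosome, start, end and name. Whether reads or calls were merged is not given in the sources used here. The deposited values are coordinates on a grid of 10 bases, with no count, signal, score or p-value, so no interval, error or test over samples could be given. The study's methods state an approximate target depth for its ChIP-seq libraries, and the list gives no depth per sample.

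Gene bodies, exons and start sites came from GENCODE version 44, promoter windows from RefSeq (GRCh38.p14). All 15351 RefSeq windows used matched the hg38 sequence exactly, and no peak ran past a chromosome end. Coordinates count from 1, and a distance is counted from the main start site unless another point is named. The distance to the nearest other peak is counted from the closest annotated start site. Summed width took whole peaks, also bases beyond the 3 kb window. Percentages of genes below a value are over the stated set. Stitched regions were assigned by overlap with the gene body or promoter window, the widest where several did. Python 3.11.15 with numpy 2.4.6 was used, and the functions were tested on simulated data. The text names the 10 genes, the genes of the lists, and neighbours whose promoter window held a peak of a locus or that shared a stitched region. The genes and lists were chosen with earlier results of these data known. The counts of start sites between peaks, the reach and isolation of peaks and the flank comparison were added after values had been seen. GC content was not compared, since too few genes had a promoter sequence (7 of 10, and 76.6% of all protein-coding genes). The motif counts rest on the same windows and cover those genes only. Alternatives were other windows, flanks, peak sets, stitching distances, rankings and motifs.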

Additional observations from a re-analysis of the deposited data

How the results depend on the processing

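Of 23 alternative settings over 7 results, 16 left the value within 1.5 times the one reported and 7 moved it further. The count of genes with a promoter peak stayed at 8 or 9 under all 4 alternatives. With the widest 50% of peaks it was 9, beside 48.6% of all protein-coding genes, and with the widest 25% it was 8, IER3 being lost, beside 26.5%. The median promoter width ranged from 2460 bases, for the widest peak alone, to 3280. The count of covered start sites rose to 8, with KLF10 added, when any annotated start counted, and the share of all protein-coding genes to 58.2%. Flanks of 100 kb gave 98 peaks at the loci and a median share of 5.3% (2.2% for all protein-coding genes), and the widest 50% of peaks left 37 peaks. The count of genes past the slope point was 1 (ZFP36, beside 5.3% of all protein-coding genes) with stitching at 5 kb, 5 (EGR3, IER2, IER3, KLF6 and ZFP36, beside 11.1%) at 25 kb, 3 (IER3 added, beside 9.4%) when ranked by span, and 0 (beside 2.53%) without the peaks that lay entirely inside 2.5 kb around a start site. The core TGACG in place of TGACGTCA gave 4 of the 7 genes with a window in place of 0, beside 29.7% of all windows in place of 2.64%. The direction relative to all protein-coding genes was thus not stable for the motif, which went from below to above. Nor was it stable for the slope point, which went from 20% of the 10 genes, above 7.67%, to 0, below 2.53%. The counts of promoter peaks and covered starts, the median width and the median share stayed above all protein-coding genes. No paired analysis was possible because the list has no column per replicate, and for the same reason no replicate could be left out. The list gives neither the depth of each sample nor the signal at uncalled sites, so a count of 0 peaks at a gene sets no upper limit on its acetylation.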

Other observations

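A list of 14 genes for factors that control immediate early genes was set beside all protein-coding genes. Of the latter, 63.4% had a promoter peak and 53.5% a covered main start site. All 14 had a promoter peak over the main start site, among them SRF, its partners ELK1, ELK3, ELK4, MRTFA and MRTFB, the CREB/ATF genes CREB1, ATF1 and CREM, the acetyltransferase genes CREBBP and EP300 and the CREB coactivator genes CRTC1, CRTC2 and CRTC3. Their median summed promoter width of 2150 bases lay below the 3280 of the 10 genes described above. CREM, whose gene gives rise to the inducible repressor ICER, had 8 promoter peaks that summed to 9800 bases. NAB1 and NAB2, which encode corepressors that bind EGR proteins, had promoter peaks of 1530 and 5870 bases in sum, and NAB2 lay in a region past the slope point at rank 464.

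Among relatives of the 10 genes, 10 of 15 other KLF genes had a promoter peak, all but KLF1, KLF8, KLF14, KLF17 and KLF18. That was 66.7%, near the 63.4% of all protein-coding genes. KLF13 had the widest promoter peaks of the 15 in sum, 7200 bases over 4 peaks. KLF16 alone of the 15 lay past the slope point, at rank 116 (6.67%, beside 7.67% of all protein-coding genes). IER5L, ZFP36L1 and ZFP36L2 all had a promoter peak, of 4720, 1110 and 4420 bases. A longer list of 40 other immediate early genes shares members with the AP-1, NR4A and relatives lists. Of the 40, 38 (95%) had a promoter peak, all but ARC and NUAK2. The median width was 3780 bases, and 14 (35%) lay past the slope point, beside 7.67% of all protein-coding genes. Among genes with a promoter peak that share was 11.8%, and among those no longer than KLF6 it was 22.5%. SIK1, a kinase gene induced through CREB, ranked 75, close to ZFP36 at 77.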
